A study of Orbilia oligospora ATCC 24927 with 24 samples.

Results

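Some of the most abundant transcripts of the nematode-trapping fungus Arthrobotrys oligospora came from genes that the deposited annotation does not describe. The genes covered here had neither a Swiss-Prot match (a curated protein of similar sequence) nor a Pfam domain (a recognised protein family) in the deposited annotation, and a mean of at least 300 TPM (a transcript level scaled for gene length and library size) over all 24 libraries. There were 87 such genes among 11479 annotated genes, of which 3846 lacked both entries and 552 reached 300 TPM. Since the genes were chosen by their mean TPM over these libraries, their levels are given as a description. The 3 genes just above the threshold were AOL_s00193g64 at 312 TPM, AOL_s00188g280 at 313 TPM and AOL_s00210g47 at 314 TPM. The 3 genes without either entry just below it were AOL_s00088g40 at 299 TPM, AOL_s00210g118 at 297 TPM and AOL_s00079g431 at 287 TPM.

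A. oligospora, also named Orbilia oligospora, lives on dead matter and captures nematodes with adhesive networks that its hyphae form when nematodes are near. In fungi, adenylate cyclase makes cyclic AMP, and cyclic AMP releases the catalytic subunits of protein kinase A, which phosphorylate many proteins of growth, sporulation and morphogenesis. Fungal genomes hold many short genes with no recognised domain, and some of them encode secreted or cell wall proteins.

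All libraries were made from hyphae of strain ATCC 24927 and its mutants grown on PDA at 28°C, and fell into 8 groups of 3. One experiment held the wild type and an AoPkaC1 deletion mutant, AoPkaC1 being a catalytic subunit of protein kinase A, and the other held the wild type and an AoAcy deletion mutant, AoAcy being the adenylate cyclase. Each strain was sampled untreated at 0 h and at 12 h of Trap induction with nematode extract; no group was untreated at 12 h, so induction cannot be told apart from 12 h of further culture. The labels do not say how many transformants stand behind each mutant or how replicate cultures were kept apart, so the p-values measure the spread between these libraries. The gene annotated as adenylate cyclase, AOL_s00080g284, was still listed at 10.3 ± 0.906 and 11.5 ± 1.31 TPM (mean ± SD, n = 3, untreated and induced) in the libraries labelled as AoAcy deletion, against 16.5 ± 0.777 and 13.3 ± 2.14 TPM in their wild type. Of 2 genes annotated as protein kinase A, AOL_s00043g480 was listed at 48.5 ± 4.03 and 25.01 ± 0.0954 TPM in the libraries labelled as AoPkaC1 deletion, against 69.6 ± 0.943 and 50.3 ± 3.79 TPM. The other, AOL_s00078g405, was listed at 51.2 ± 5.03 and 25.04 ± 0.921 against 57.1 ± 1.10 and 25.9 ± 1.57 TPM. The files do not say which of these is AoPkaC1 or which bases were deleted, so the mutant libraries are called PkaC1-labelled and Acy-labelled here. The Woronin body gene AOL_s00112g56, a marker of filamentous ascomycete hyphae, was present in all 24 libraries at 590 to 7032 TPM.

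Beyond the Swiss-Prot and Pfam columns, other annotation was sparse but not absent. Of the 87, 48 had no Gene Ontology, KEGG or orthologous-group entry, while 39 had at least 1 of these. Among those 39, 32 fell in an orthologous group and 16 had a Gene Ontology term, which for 13 named only a membrane. Several orthologous groups carried a description. AOL_s00210g120 belonged to a group named regulator medusa, after a regulator of conidiophore development in Aspergillus. AOL_s00043g75 belonged to a group named copper resistance protein Crd2, and AOL_s00193g71 to one of glutathione-dependent formaldehyde-activating enzymes. AOL_s00054g655 was assigned to a group of PX domain proteins and AOL_s00006g141 to one of casein kinase II beta subunits. The KEGG entry of AOL_s00193g20 was MUC2, a name that in mammals belongs to a secreted mucin. A match in the nr database was given for 85 of the 87, in each case an entry under the gene's own locus tag, and the genes without one were AOL_s00054g914 and AOL_s00076g476.

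The genes were short. Their median coding length was 549 bases, with a range from 198 to 1827, against 711 bases for the 465 genes at or above 300 TPM with a Swiss-Prot or Pfam entry and 966 bases for the 3759 genes without either entry under 300 TPM. Genes under 600 bases made up 54.0% of the 87, 41.3% of the annotated abundant genes and 27.4% of the rarer genes without an entry. Within the 87, the median length was 621 bases for the 29 genes under 500 TPM and 484.5 bases for the 18 genes at 2000 TPM or more. The shortest were AOL_s00054g914 at 198 bases, AOL_s00097g177 at 204 and AOL_s00004g563 at 210, and the longest were AOL_s00210g120 at 1827, AOL_s00097g567 at 1821 and AOL_s00170g33 at 1716. Since TPM divides by length, a short gene needs fewer reads to reach a given TPM, and the read depth behind these values is not known from the files.

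**Figure D1:**
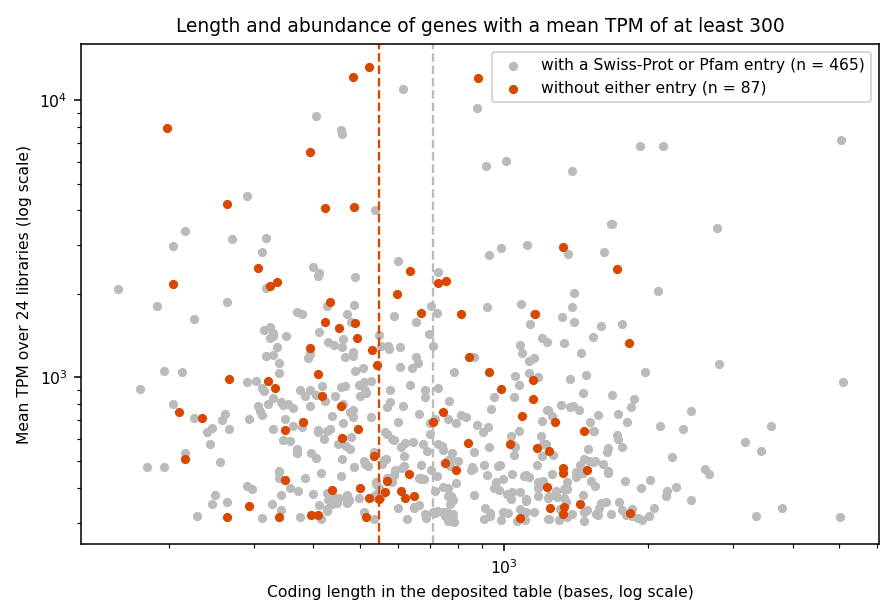
Coding length in bases against mean TPM over 24 libraries, both on log scales, for the 87 genes without a Swiss-Prot or Pfam entry and the 465 annotated genes at or above 300 TPM. Dashed lines mark the medians, 549 and 711 bases, and the 87 genes lie further to the left at the top of the plot.

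The 87 genes held between 11.4% and 17.7% of all TPM in a library. In the AoPkaC1 experiment the share was 14.8% ± 0.0834 (SD, n = 3) in the untreated wild type, 11.6% ± 0.115 in the induced wild type, 17.0% ± 0.881 in the untreated PkaC1-labelled libraries and 16.2% ± 0.168 in the induced ones. In the AoAcy experiment it was 13.5% ± 0.802 in the untreated and 13.0% ± 0.646 in the induced wild type, and 12.4% ± 0.797 and 11.7% ± 0.155 in the Acy-labelled libraries. They supplied 4 of the 10 genes of highest mean TPM, 17 of the first 50 and 41 of the first 200.

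AOL_s00176g78, a gene of 522 bases, had the highest mean of all, and that mean came from the AoAcy experiment. Its untreated wild-type libraries there stood at 30043, 33069 and 34815 TPM, and the induced ones at 25813, 34532 and 35941. In the AoPkaC1 experiment the wild type had only 142, 146 and 154 TPM untreated and 739.9, 784 and 786 TPM induced. The tables of the experiments were normalized separately, so this contrast between wild types is a description without a test.

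AOL_s00215g1 and AOL_s00076g689 were abundant everywhere. The groups of highest and lowest mean for AOL_s00215g1 had 22459, 22926 and 23441 TPM (untreated PkaC1-labelled) and 6078, 6643 and 6882 TPM (induced Acy-labelled). For AOL_s00076g689 they had 29519, 29883 and 29949.8 TPM (untreated PkaC1-labelled) and 4650.0, 4853 and 4927 TPM (induced wild type of the AoAcy experiment), and single libraries of other groups lay outside these values for both genes. AOL_s00054g914, the shortest of the genes, held 12766, 13077 and 13713 TPM in the untreated wild type of the AoPkaC1 experiment and 4643, 5387 and 5397 in that of the AoAcy experiment.

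The wild types of the experiments differed widely in these genes. Untreated wild-type means lay at least 4-fold apart in 43 of the 87 genes (49.4%), against 127 of the 465 annotated abundant genes (27.3%), and at least 16-fold apart in 13 (14.9%) against 31 (6.67%). Of the 43, 28 were higher in the AoPkaC1 experiment and 15 in the AoAcy experiment, while of the 13 most separated, 10 were higher in the AoAcy experiment. AOL_s00169g35 was at 0.920, 1.54 and 1.76 TPM in the untreated wild type of the AoPkaC1 experiment and at 841, 1032 and 1066 in the other. AOL_s00054g151 was listed at 0 in all 3 untreated wild-type libraries of the AoPkaC1 experiment and stood at 395, 448 and 452 TPM in the other. AOL_s00080g217, annotated as a membrane protein, went the other way, with 1228, 1242 and 1276 TPM against 8.91, 13.8 and 15.3. Of the 87, 45 reached a mean of 300 TPM in both experiments, 24 did so in the AoPkaC1 experiment alone and 18 in the AoAcy experiment alone. Of the 465 annotated abundant genes, 277 did so in both, 94 in the AoPkaC1 experiment alone and 94 in the AoAcy experiment alone. A summed list of 6 conidiation and hydrophobin genes stood at 11.3 to 76.4 TPM in the AoPkaC1 libraries and 562 to 8747 TPM in the AoAcy libraries. In a group, 1 to 4 of the 6 were at 1 TPM or more. This separation came from the hydrophobin gene AOL_s00006g570 alone, which was listed at 0 in 4 of the 6 wild-type libraries of the AoPkaC1 experiment. In the untreated wild type its median was 779 TPM beside a median sum of 791 TPM in the AoAcy experiment. In the AoPkaC1 experiment these were 0 and 23.1 TPM. The other genes of the list, summed, did not separate the experiments. The part of conidia in these levels was not tested.

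**Figure D2:**
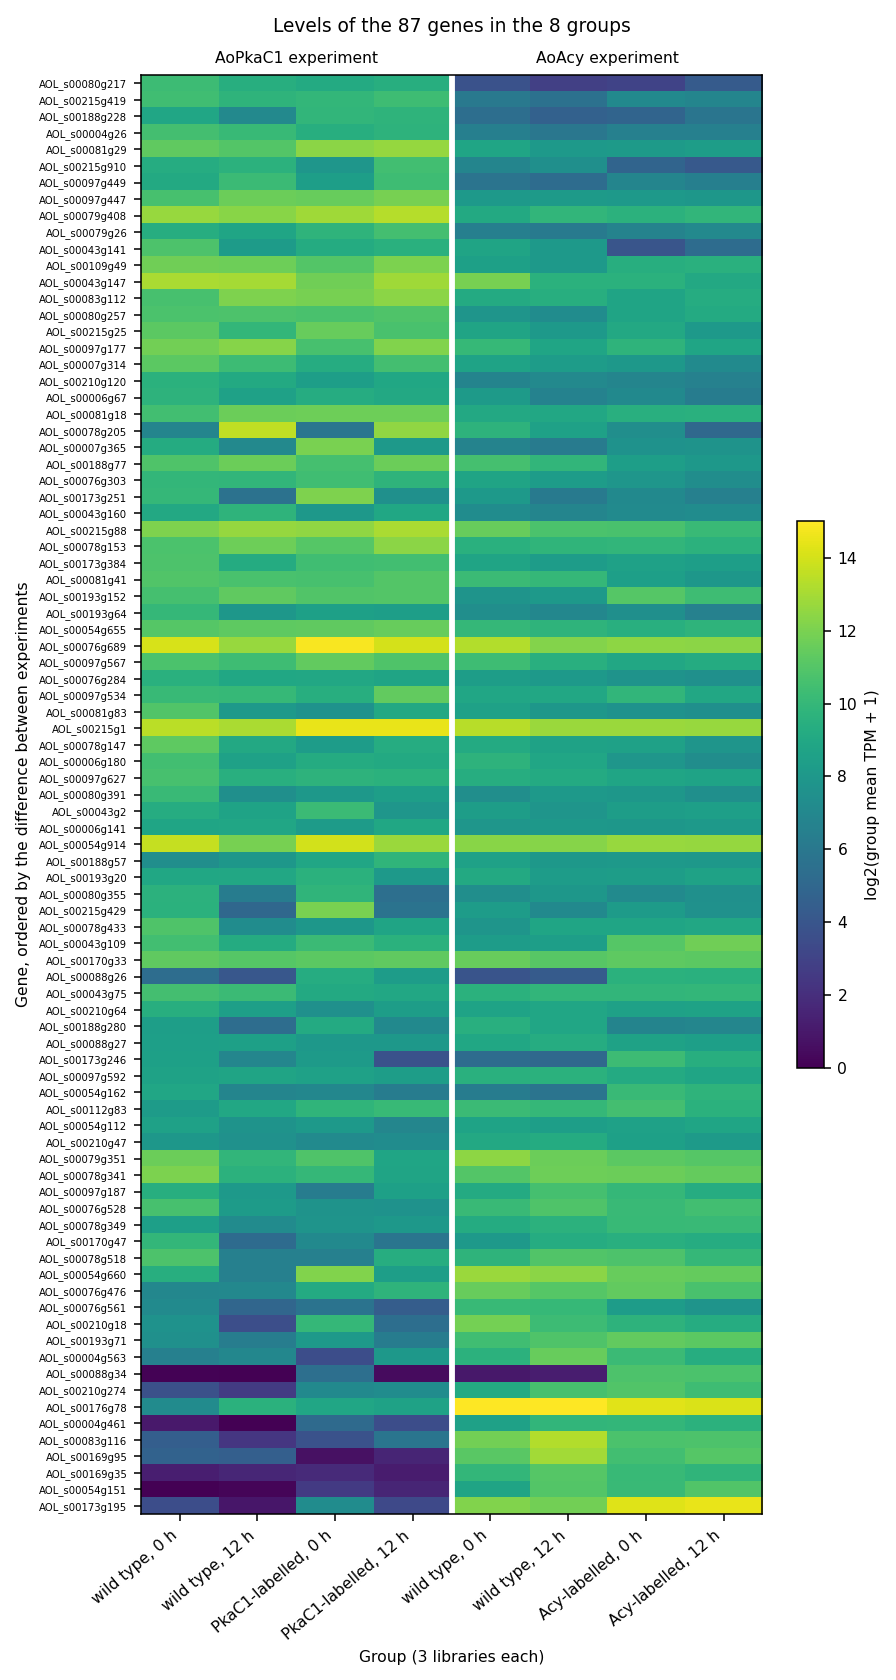
Group means of the 87 genes as log2(TPM + 1), 1 row per gene and 1 column per group of 3 libraries, with the rows ordered by the difference between the experiments. The lowest rows, among them AOL_s00173g195 and AOL_s00176g78, are darker in the 4 groups of the AoPkaC1 experiment than in those of the AoAcy experiment.

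Most of the genes varied widely between groups. The ratio of the highest to the lowest group mean had a median of 12.1 over the 87 genes and 5.13 over the 465 annotated ones, and was at least 16 in 39 (44.8%) against 92 (19.8%). In 20 of the 87 (23.0%), the mean over the other 7 groups was under 300 TPM once the highest group was set aside, against 76 of the 465 (16.3%). The steadiest gene was AOL_s00170g33, which lay between 1713 and 3524 TPM in every library. AOL_s00006g141, AOL_s00097g592, AOL_s00088g27 and AOL_s00193g20 followed it. At the other end stood AOL_s00173g195, which had 0.730, 0.900 and 1.11 TPM in the induced wild type of the AoPkaC1 experiment and 21766, 23520.4 and 25628 TPM in the induced Acy-labelled libraries.

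Changes were tested within each experiment with limma on log2(TPM + 1) over all genes with at least 1 TPM in at least 3 libraries, 8977 in the AoPkaC1 and 9617 in the AoAcy experiment, and a gene was called at an adjusted p under 0.05. All 87 genes passed this filter in both experiments, AOL_s00088g34 in the AoPkaC1 experiment only through the untreated PkaC1-labelled libraries. AOL_s00054g151 passed it there only through the PkaC1-labelled libraries, untreated and induced, and was listed at 0 to 0.4 TPM in the wild type. Both genes could enter that test only by differing, and both are counted below as higher in the PkaC1-labelled libraries. Each fold change below is on the log2(TPM + 1) scale with its standard error.

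The sharpest change was that of AOL_s00088g34, a gene of 633 bases. It was listed at 0 to 0.19 TPM in the untreated and at 0 in the induced wild type of the AoPkaC1 experiment, and in the wild type of the AoAcy experiment at 0.160, 0.690 and 1.97 TPM untreated and 0.760, 1.29 and 1.98 TPM induced. In the Acy-labelled libraries it stood at 1722, 1784 and 1829 TPM untreated and 1677, 1696 and 1893 TPM induced. In the PkaC1-labelled libraries it reached 39.95, 43.7 and 45.5 TPM untreated and was back at 0.170, 0.350 and 0.560 TPM after induction.

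No mutant library overlapped the wild type in either untreated comparison. The log2 fold change was 9.95 ± 0.27 (adjusted p = 7.64e-11) untreated and 9.58 ± 0.27 (adjusted p = 1.22e-10) induced in the AoAcy experiment. It was 5.38 ± 0.14 untreated in the AoPkaC1 experiment, where the gene reached 1 TPM in the untreated PkaC1-labelled libraries alone and so could enter the test only by differing.

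AOL_s00088g34 lies within a run of genes with a like pattern of levels. The run was taken as the 13 genes from AOL_s00088g33 to AOL_s00088g45 in the order of the RefSeq annotation, with bounds chosen after the values were seen, so it is described without a test. Untreated, the log2 fold changes of the 13 genes in the Acy-labelled libraries ran from 1.14 to 9.95 with a median of 7.01, and induced from 1.11 to 10.2 with a median of 7.18. In the untreated PkaC1-labelled libraries they ran from 0.12 to 6.70 with a median of 4.65, and in the induced ones from -1.002 to 0.72 with a median of 0.12. In the AoPkaC1 experiment, 8 of the 13 genes reached 1 TPM only in the untreated PkaC1-labelled libraries.

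The run held mostly genes of the same kind as AOL_s00088g34. Of its 13 genes, 12 had neither a Swiss-Prot nor a Pfam entry, and the exception, AOL_s00088g42, carried a C2H2-type zinc finger domain, a fold found in many DNA-binding proteins. Summed over the run, levels were 104, 115 and 117 TPM in the untreated wild type and 6806, 7031 and 7762 TPM in the untreated Acy-labelled libraries. The sums were 33.8, 36.5 and 37.4 TPM in the untreated wild type and 701, 735 and 862 TPM in the untreated PkaC1-labelled libraries of the other experiment. Since the genes of the run were picked with these values in view, the distance between the sums is a description. AOL_s00088g40, the gene just under the 300 TPM threshold, belongs to the run. Whether the genes of the run resemble each other in sequence was not analysed here.

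**Figure D3:**
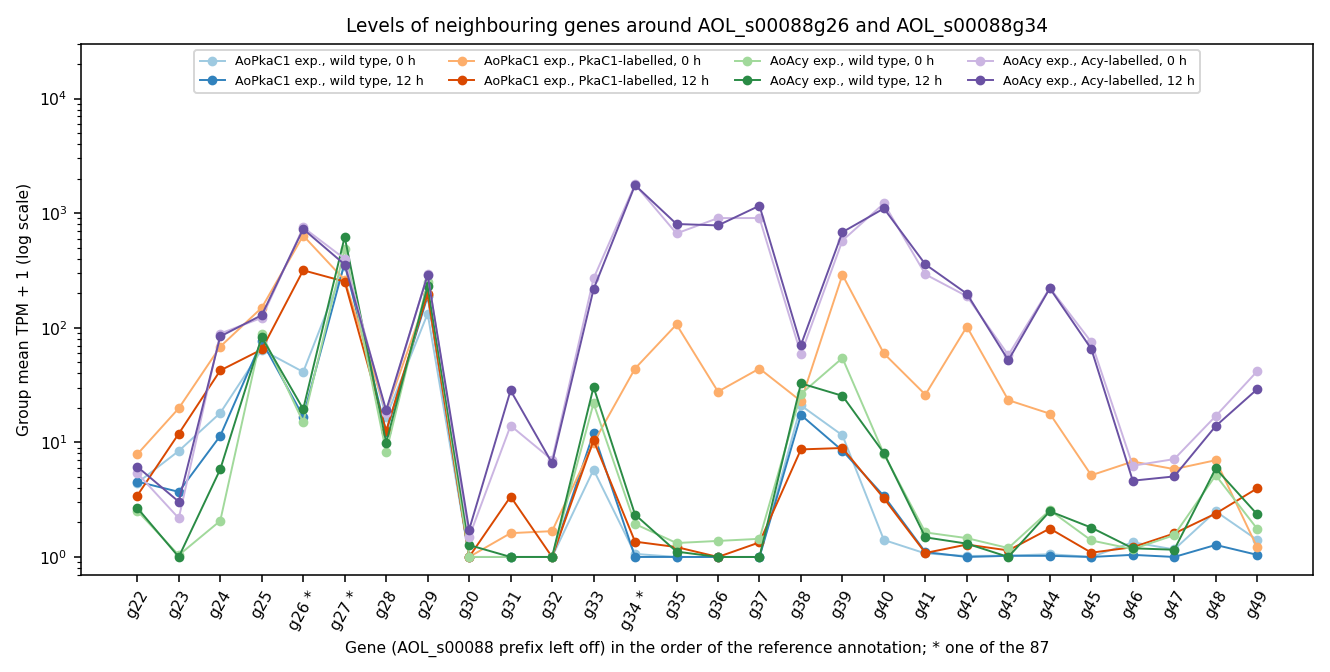
Group mean TPM + 1 on a log scale for 28 neighbouring genes in the order of the reference annotation, from AOL_s00088g22 to AOL_s00088g49, with 1 line per group of 3 libraries and asterisks on 3 of the 87 genes. From g33 to g45 the Acy-labelled lines lie above all others, the untreated PkaC1-labelled line lies between them and the wild type from g34 to g37 and from g39 to g45, and the induced PkaC1-labelled line lies near the wild type.

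Neighbours were compared in the same way for the other genes. Among the 5 genes on each side, AOL_s00088g34 had 7 with a change of at least 4-fold in its direction in the untreated Acy-labelled comparison and 4 in the PkaC1-labelled one. In the latter comparison AOL_s00088g34 and its neighbours g35, g36 and g37 reached 1 TPM only in the untreated PkaC1-labelled libraries. They could enter that test only by differing. Of 12 other genes in the former comparison and 23 in the latter with a called change of at least 4-fold, 7 and 14 had no such neighbour, and 5 and 9 had 1 or 2. Neighbours that could be tested ranged from 2 for AOL_s00007g314 to 10, so these counts are a description. AOL_s00088g26, which lies 8 places before AOL_s00088g34, was higher in the mutant libraries in all 4 comparisons. Its untreated levels were 12.2, 12.3 and 17.4 TPM in the wild type and 575, 642 and 1032 TPM in the Acy-labelled libraries, with a log2 fold change of 5.62 ± 0.28 (adjusted p = 1.60e-08). They were 37.8, 40.5 and 42.2 against 523, 688 and 697 TPM in the AoPkaC1 experiment, with a log2 fold change of 3.94 ± 0.12 (adjusted p = 2.38e-10). The libraries of wild type and mutant stood apart in both. Its direct neighbour AOL_s00088g27, the only adjacent pair among the 87, was among the 5 steadiest genes. Untreated, it was at 450.4, 489 and 528 TPM in the wild type and 348, 407 and 441 TPM in the Acy-labelled libraries, and was not called. It was called lower in the mutant libraries in the 3 other comparisons with the wild type. The log2 fold changes were -0.41 untreated and -0.55 induced in the AoPkaC1 experiment, and -0.81 induced in the AoAcy experiment.

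In untreated hyphae of the AoPkaC1 experiment, 33 of the 87 genes were higher and 43 lower in the PkaC1-labelled libraries. The 76 called genes are 87.4% of the 87, where 64.7% of all tested genes and 70.7% of the annotated abundant genes were called. The median log2 fold change was -0.37 over the 87, -0.12 over the annotated abundant genes and 0.20 over all tested genes. Called changes of at least 2-fold were found in 52.9% of the 87 and 23.1% of all tested genes. Scaled so that all libraries share a median, 27 of the 87 (31.0%) were higher and 49 (56.3%) lower, against 29.7% and 33.1% of all tested genes. The wild-type replicates of this experiment lay closer together than those of the other groups, with a median coefficient of variation among these genes of 1.996% untreated and 2.15% induced against 6.03% to 19.9%, and 58 of the 87 (66.7%) were called when each wild-type group was entered as 1 library, against 33.4% of all tested genes.

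AOL_s00078g518 fell the most. Its untreated wild-type libraries stood at 1729, 1782 and 1835 TPM and the PkaC1-labelled ones at 63.96, 104 and 105. The groups stood far apart, with a log2 fold change of -4.31 ± 0.18 (adjusted p = 2.81e-09). AOL_s00169g95 fell from 24.1, 24.6 and 28.1 to 0.330, 0.480 and 0.960 TPM, both low against its levels in the AoAcy experiment. AOL_s00004g563 was at 69.04, 100.3 and 109 TPM in the wild type and 0, 6.42 and 25.7 TPM in the mutant libraries, and its adjusted p of 0.00181 became 0.0942 with each wild-type group as 1 library. AOL_s00004g461 was higher, at 0, 1.10 and 2.11 TPM in the wild type and 29.4, 34.9 and 39.7 in the PkaC1-labelled libraries, with a log2 fold change of 4.24 ± 0.34 (adjusted p = 7.26e-07).

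After induction, 46 of the 87 were higher and 20 lower in the PkaC1-labelled libraries. The 66 called genes are 75.9% of the 87, near the 70.9% of all tested genes, with more of the 87 higher than lower. The median log2 fold change was 0.35 over the 87, -0.43 over the annotated abundant genes and -0.39 over all tested genes, of which 18.9% were called higher and 52.0% lower. With a shared library median 60 (69.0%) were higher and 11 (12.6%) lower, against 31.8% and 32.1% of all tested genes. With each wild-type group as 1 library 43 (49.4%) were called, against 43.6%. AOL_s00210g274 was the most raised, from 1.66, 5.60 and 8.05 TPM in the wild type to 145, 146 and 184 TPM, a log2 fold change of 4.87 ± 0.34 (adjusted p = 3.33e-07). AOL_s00004g461 was listed at 0 in all 3 induced wild-type libraries and at 7.95, 9.96 and 14.1 TPM in the induced PkaC1-labelled ones.

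Among the genes that fell, AOL_s00173g246 stood at 105, 111 and 133 TPM in the induced wild type and 12.1, 12.7 and 13.9 TPM in the PkaC1-labelled libraries. Its log2 fold change was -3.08 ± 0.10 (adjusted p = 7.93e-10), and the groups did not overlap. AOL_s00043g75, of the copper resistance Crd2 group, was at 1161, 1207 and 1239 TPM in the wild type and 484, 516 and 522 TPM in the mutant libraries, a log2 fold change of -1.24 ± 0.06 (adjusted p = 1.99e-08).

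Most of these genes fell on Trap induction in the wild type of the AoPkaC1 experiment. There, 53 of the 87 fell and 15 rose, together 78.2% against 69.7% of all tested genes, of which 41.6% fell and 28.1% rose. The median log2 fold change was -0.61 over the 87 and -0.16 over all tested genes, whereas it was 0.20 over the annotated abundant genes, of which 47.0% rose. With a shared library median 45 of the 87 (51.7%) fell and 21 (24.1%) rose, against 34.5% and 37.5% of all tested genes. Both groups compared here are the wild-type groups with the closest replicates, at a median coefficient of variation of 1.996% and 2.15%. Whether these replicates are separate cultures is not given, so the counts carry that limit. AOL_s00170g47 fell from 976, 994 and 1011 to 28.9, 36.6 and 44.8 TPM, a log2 fold change of -4.74 ± 0.16 (adjusted p = 3.72e-10). AOL_s00215g429, annotated as a membrane protein, fell from 765, 769 and 781 to 28.9, 30.7 and 33.5 TPM, and AOL_s00173g251 from 1000.2, 1045 and 1051 to 43.3, 46.8 and 56.7 TPM. In each of these 3 genes the induced libraries lay far below every untreated one.

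AOL_s00078g205 went against this direction. It rose from 109, 111 and 118 TPM untreated to 12040.5, 12483 and 12521 TPM after induction, a log2 fold change of 6.76 ± 0.19 (adjusted p = 1.29e-10). In the PkaC1-labelled libraries it rose from 36.9, 66.6 and 71.1 to 5605, 5726 and 6484 TPM, a log2 fold change of 6.70 ± 0.19 (adjusted p = 8.78e-11). In the AoAcy experiment it fell instead, from 761, 771 and 982 to 340.1, 343 and 449 TPM in the wild type and from 119, 167 and 219.7 to 21.04, 32.00 and 43.2 TPM in the Acy-labelled libraries. It was the only gene of the 87 called in all 8 comparisons of 2 groups, as were 43 of the 8751 genes tested in both experiments. AOL_s00083g112 was also raised by induction in the wild type of the AoPkaC1 experiment, from 1524, 1612 and 1615 to 4347, 4401 and 4408 TPM (adjusted p = 2.24e-07).

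**Figure D4:**
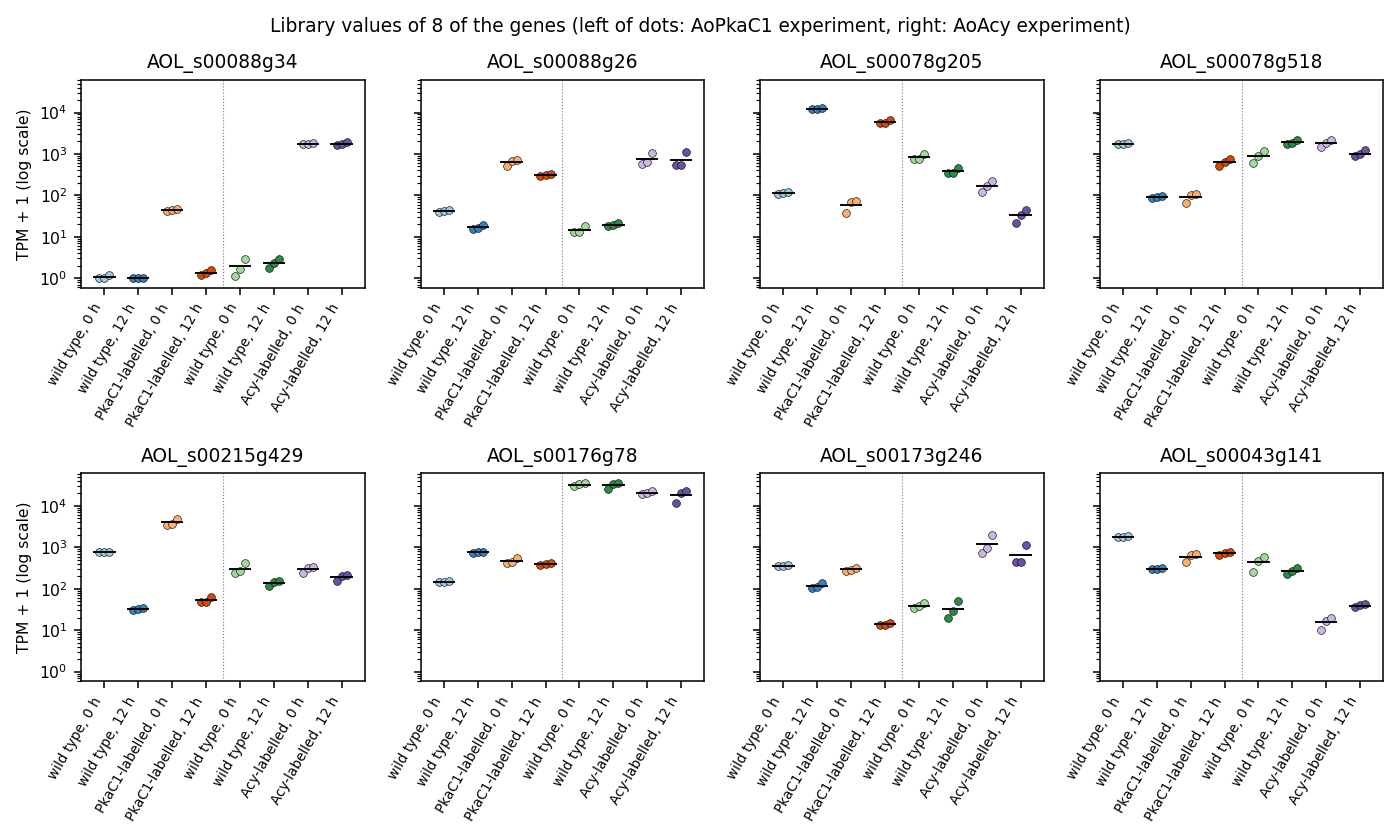
TPM + 1 on a log scale in every library for 8 of the 87 genes, 3 dots per group and a line at the group mean, with the AoPkaC1 experiment left of the dotted line and the AoAcy experiment right of it. AOL_s00078g205 rises on induction in both strains of the AoPkaC1 experiment and falls in both strains of the AoAcy experiment, and AOL_s00088g34 is high only in Acy-labelled and untreated PkaC1-labelled libraries.

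In the PkaC1-labelled libraries induction raised 37 of the 87 and lowered 33. The 70 called genes are 80.5% of the 87, near the 81.6% of all tested genes, of which 19.4% rose and 62.2% fell. On the log2 scale the median change was 0.08 over the 87, 0.34 over the annotated abundant genes and -0.72 over all tested genes, and with a shared library median 61 of the 87 (70.1%) rose and 17 (19.5%) fell, against 41.5% and 34.4% of all tested genes. AOL_s00215g429 fell from 3533, 3612 and 4914 to 46.8, 47.4 and 61.5 TPM, a log2 fold change of -6.24 ± 0.13 (adjusted p = 1.35e-11). AOL_s00210g18 fell from 931, 962 and 1212 to 29.5, 41.1 and 56.6 TPM. In the authors' deposited table, 59 of the 87 rose and 19 fell in this comparison, and the fold changes lay a median of 0.72 above these on the log2 scale. The authors' calls were counted for the 87 alone, without the share over all genes, so they do not set the 87 apart. Genes called by both with the opposite sign in the authors' deposited table numbered 5, AOL_s00097g567, AOL_s00006g67, AOL_s00076g284, AOL_s00176g78 and AOL_s00043g75. Such genes were also AOL_s00054g914 in the untreated and AOL_s00193g152 and AOL_s00076g284 in the induced comparison of PkaC1-labelled libraries with the wild type, by the authors' deposited table.

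The response to induction itself differed between the strains of the AoPkaC1 experiment in 72 of the 87 genes (82.8%, against 71.9% of all tested genes). It was higher in the PkaC1-labelled libraries in 52 and lower in 20, where 18.0% of all tested genes were higher and 53.9% lower. With a shared library median it was higher in 66 (75.9%) and lower in 9 (10.3%), against 33.02% and 30.9% of all tested genes. With each wild-type group as 1 library, 41 of the 87 (47.1%) were called, against 43.8%. AOL_s00078g518 fell in the wild type, from 1729, 1782 and 1835 to 87.5, 89.03 and 94.6 TPM, and rose in the PkaC1-labelled libraries, from 63.96, 104 and 105 to 525, 652 and 770.3 TPM. The difference of its responses was 7.13 ± 0.25 on the log2 scale (adjusted p = 2.12e-09). AOL_s00078g433 fell from 1862, 1898 and 1919 to 149.7, 156 and 157 TPM in the wild type and stood in the mutant libraries at 181, 271 and 284 TPM untreated and 377, 433 and 472 TPM induced, a difference of 4.43 ± 0.20 (adjusted p = 1.89e-08).

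In untreated hyphae of the AoAcy experiment, 23 of the 87 were higher and 28 lower in the Acy-labelled libraries. The 51 called genes are 58.6% of the 87, against 42.1% of all tested genes and 42.7% of the annotated abundant genes, and called changes of at least 2-fold were found in 32.2% against 18.1% of all tested genes. The median log2 fold change was -0.10 over the 87 and 0.11 over all tested genes. With a shared library median 19 (21.8%) were higher and 32 (36.8%) lower, against 21.8% and 23.1% of all tested genes. After AOL_s00088g34 and AOL_s00088g26, the most raised gene was AOL_s00173g246, at 33.03, 36.8 and 45.3 TPM in the wild type and 733, 981 and 1962 TPM in the Acy-labelled libraries, a log2 fold change of 4.85 ± 0.44 (adjusted p = 2.60e-06). AOL_s00173g195 stood at 4260.4, 4492 and 4892 TPM in the wild type and at 15283, 19378 and 25209 TPM in the Acy-labelled libraries, a log2 fold change of 2.11 ± 0.21 (adjusted p = 6.37e-06).

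AOL_s00043g141 was lowered the most, from 249.8, 467 and 578 TPM in the wild type to 9.04, 15.7 and 18.8 TPM. Its log2 fold change was -4.78 ± 0.29 (adjusted p = 1.03e-07). AOL_s00188g280 was at 402, 772 and 976 TPM in the wild type and 90.03, 93.3 and 139.8 TPM in the Acy-labelled libraries (adjusted p = 2.66e-05). No mutant library reached the wild-type range in either gene.

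After induction, 20 of the 87 were higher and 23 lower in the Acy-labelled libraries. The 43 called genes are 49.4% of the 87, below the 59.2% of all tested genes, while called changes of at least 2-fold were found in 32.2% against 24.2%. On the log2 scale the median change was -0.17 over the 87 and 0.39 over all tested genes. With a shared library median 13 (14.9%) were higher and 48 (55.2%) lower, against 21.2% and 29.9% of all tested genes. Together 61 (70.1%) were then called, above the 51.1% of all tested genes. Whether the share of the 87 lay below or above that of all tested genes thus depended on the scaling. AOL_s00215g910 was at 163, 182 and 194 TPM in the wild type and 15.03, 17.3 and 20.5 TPM in the Acy-labelled libraries, a log2 fold change of -3.29 ± 0.37 (adjusted p = 1.16e-05). AOL_s00173g246 was at 18.3, 28.4 and 50.4 TPM in the wild type and remained higher in the Acy-labelled libraries, at 439.9, 442 and 1125 TPM (adjusted p = 4.77e-06).

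Induction of the wild type in the AoAcy experiment raised 14 of the 87 and lowered 22, together 41.4% against 28.6% of all tested genes, of which 9.2% rose and 19.4% fell. Called changes of at least 2-fold were found in 21.8% of the 87, 8.62% of the annotated abundant genes and 8.36% of all tested genes. With a shared library median 20 (23.0%) rose and 11 (12.6%) fell, against 15.2% and 9.29% of all tested genes, so the balance of directions depended on the scaling. On the log2 scale the median change was -0.26 over the 87 and -0.19 over all tested genes. AOL_s00054g151 rose from 395, 448 and 452 to 1818, 2165 and 2188 TPM, a log2 fold change of 2.25 ± 0.29 (adjusted p = 1.61e-04). AOL_s00169g95 rose from 1918, 2124 and 2877 to 7316, 7832 and 7959.9 TPM (adjusted p = 0.0014). AOL_s00043g147 fell from 2177, 3691 and 5887 to 613, 850.3 and 869 TPM (adjusted p = 3.80e-04). In the same comparison the hydrophobin gene AOL_s00006g570 went from 747 ± 184 to 7568 ± 992 TPM, and its part in these changes was not tested.

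In the Acy-labelled libraries few genes responded to induction. Of the 87, 4 rose and 3 fell, 8.05% against 4.99% of all tested genes, of which 3.66% rose and 1.33% fell. With a shared library median 2 of the 87 rose and 4 fell, against 250 and 192 of the 9617 tested genes. The balance of directions thus depended on the scaling. In the authors' deposited table, 3 of the 87 rose and 17 fell in this comparison, where the share over all genes was not counted. Changes of at least 2-fold were called in 3 of the 87 (3.45%) and in 2.23% of all tested genes. AOL_s00043g141 rose from 9.04, 15.7 and 18.8 to 35.4, 38.6 and 41.2 TPM (adjusted p = 0.0176), and AOL_s00080g217 from 5.97, 7.10 and 7.78 to 14.9, 20.1 and 20.99 TPM (adjusted p = 0.00915). The fall of AOL_s00078g205 was the largest, at -2.37 ± 0.26 on the log2 scale (adjusted p = 4.44e-04). The count of called genes among the 87 was 4 with the replicate number as a block, and it ran from 1 to 10 when single libraries were left out. It was 1 without replicate 1 and 3 without replicate 2 of the induced Acy-labelled libraries, 3 without replicate 2 of the untreated ones and 4 without replicate 3 of the induced wild type.

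The response to induction differed between the strains of the AoAcy experiment in 23 of the 87 (26.4%, against 19.3% of all tested genes), higher in the Acy-labelled libraries in 13 and lower in 10. Of all tested genes, 14.2% were higher and 5.1% lower, and with a shared library median 4 of the 87 (4.60%) were higher and 18 (20.7%) lower, against 5.34% and 9.76%. AOL_s00004g563 rose in the wild type, from 580.5, 850.0 and 961 to 2525, 2896 and 3341 TPM, and stood in the Acy-labelled libraries at 852, 1149.9 and 1536 TPM untreated and 616, 648 and 693 TPM induced. The difference of its responses was -2.71 ± 0.31 on the log2 scale (adjusted p = 2.57e-04). AOL_s00210g274 went from 498, 609 and 644 to 1371, 1397 and 2016 TPM in the wild type. In the Acy-labelled libraries it stood at 1622, 1977 and 2201 TPM untreated and 895, 1069 and 1945 TPM induced, a difference of responses of -2.07 ± 0.36 (adjusted p = 0.00366).

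**Figure D5:**
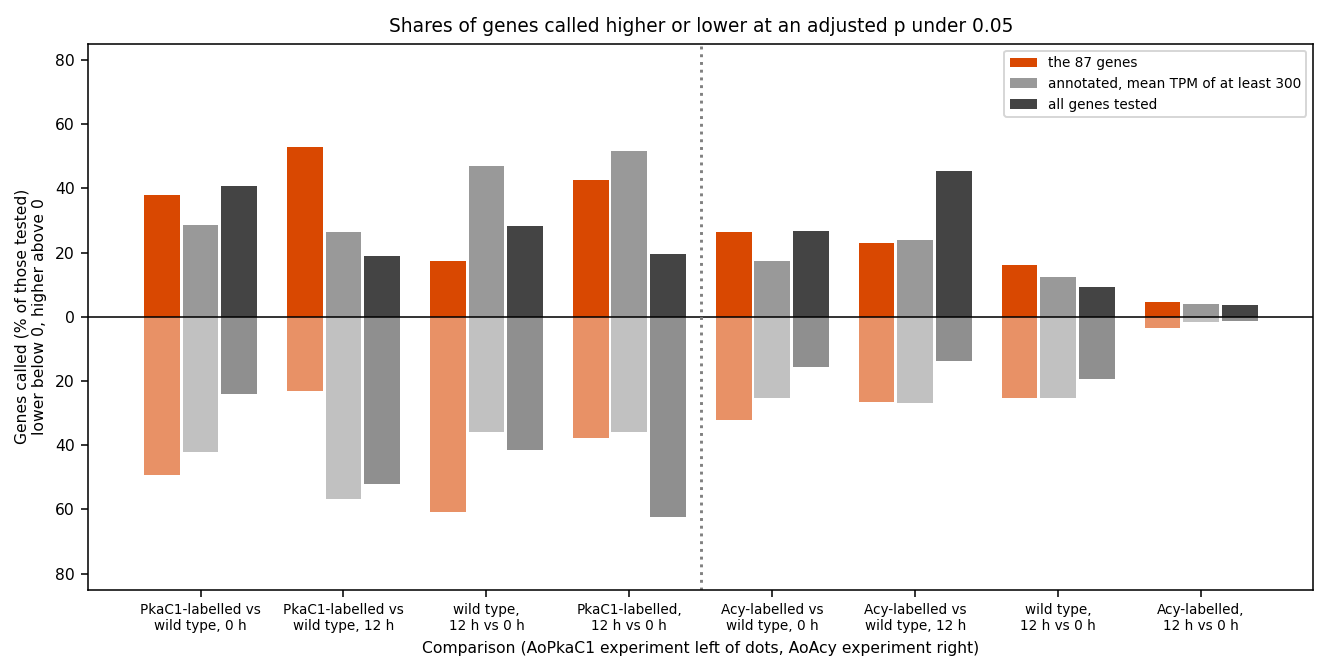
Percent of tested genes called higher (above 0) or lower (below 0, paler) at an adjusted p under 0.05 in the 8 comparisons of 2 groups, for the 87 genes, the 464 annotated abundant genes tested and all genes tested. The lower bar of the 87 genes is the tallest of its comparison in the induced wild type of the AoPkaC1 experiment, at 60.9%, and their upper bar is the tallest in the induced PkaC1-labelled comparison, at 52.9%.

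The experiments share no libraries, so their calls can be set side by side. Of the 76 genes called in the untreated PkaC1-labelled and the 51 in the untreated Acy-labelled comparison, 46 were called in both. Of these 46, 10 were higher in both, 12 lower in both and 24 went in opposite directions. The 10 include AOL_s00088g34 and AOL_s00054g151, which could enter the test of the AoPkaC1 experiment only by differing. The 22 with 1 direction are 28.9% of the former and 43.1% of the latter. These shares are near the 29.4% and 45.2% over all genes tested in both experiments. Among them, AOL_s00088g26, AOL_s00173g195, AOL_s00004g461 and AOL_s00210g274 were higher in both and AOL_s00043g141, AOL_s00043g147 and AOL_s00078g205 lower in both. Over all 8751 genes tested in both experiments, 1672 of 2454 genes called in both had 1 direction and 782 opposite ones. After induction, 33 were called in both, 16 with 1 direction and 17 with opposite ones, against 1292 and 2392 of the 3684 over all genes. For induction of the wild type, 27 were called in both, of which none rose in both, 12 fell in both and 15 went in opposite directions. Over all genes 1846 were called in both, of which 127 rose in both, 684 fell in both and 1035 went in opposite directions, a share of opposite directions near that of the 87. AOL_s00173g251, AOL_s00210g18 and AOL_s00215g429 were among the 12.

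Values of 3 genes whose orthologous group carries a name follow. AOL_s00210g120, of the medusa group, was at 755, 788 and 794 TPM in the untreated wild type and 299.9, 338 and 358 TPM in the PkaC1-labelled libraries, a log2 fold change of -1.23 ± 0.07 (adjusted p = 3.56e-08). In the AoAcy experiment it stood at 58.7, 120.1 and 149 TPM in the untreated wild type and 88.7, 111 and 135 TPM in the Acy-labelled libraries (adjusted p = 0.788), and these groups overlapped, with a log2 fold change of 0.11 ± 0.28. AOL_s00193g71, of the formaldehyde-activating group, was at 1318, 1382 and 1417 TPM in the untreated wild type and 1961, 2423 and 3625 TPM in the Acy-labelled libraries, a log2 fold change of 0.91 ± 0.26 (adjusted p = 0.0136). AOL_s00006g141, of the casein kinase II beta group, was among the 5 steadiest genes, at 227, 232 and 238 TPM in the untreated wild type and 238, 239.9 and 243 TPM in the Acy-labelled libraries. In the AoPkaC1 experiment it was at 445, 454 and 463 TPM in the untreated wild type and 252, 319.6 and 324 TPM in the untreated PkaC1-labelled libraries, a log2 fold change of -0.61 ± 0.09 (adjusted p = 1.17e-04), and rose to 469.9, 478 and 529.9 TPM on their induction (adjusted p = 1.36e-05). AOL_s00193g71 had a log2 fold change of 0.51 ± 0.07 (adjusted p = 1.03e-04) in the untreated PkaC1-labelled libraries, from 173, 179 and 196 TPM in the wild type to 252, 259 and 269.7 TPM.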

How the data were processed

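RNA-seq of 24 libraries, 3 in each of 8 groups, was read from the tables as deposited. Per the submitters' processing notes, reads were processed with HISAT2 and StringTie. Their versions, the genome build and the read depth are not given in the sources used here. Authors' tables, as deposited, hold TPM values per gene for each experiment, with Swiss-Prot, Pfam, Gene Ontology, KEGG, orthologous-group and nr columns and a gene length, which was a multiple of 3 for 11477 of the 11479 named genes and is called coding length here. The authors also deposited tables of log2 fold changes with adjusted p-values, used only where named. The 8 columns of group means and the deposited correlation tables were not used. The TPM table of the AoPkaC1 experiment also held 1568 unnamed loci, 1.69% to 2.77% of the TPM of its libraries. Entries without a gene name were left out of the tests in both experiments.

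Each experiment was tested apart. A gene entered the test where 3 or more of 12 libraries had 1 TPM or more, and log2(TPM + 1) was compared with limma 3.58.1 (trended variances) in R 4.3.3, with the 4 groups of the experiment in 1 fit and p-values adjusted by Benjamini-Hochberg over all tested genes. Tables were prepared with Python 3.11.15, pandas 2.3.3 and numpy 2.4.6, and figures with matplotlib 3.10.9. The procedure was tested on simulated data in which each gene had normal noise of the same spread in all groups and few genes were changed. That setting leaves out the unequal spread of the groups and the large share of genes called here. The procedure called 7 and 13 unchanged genes in the induced comparisons of the AoPkaC1 and AoAcy experiments. In the induced comparison of the AoPkaC1 experiment (8977 genes) it recovered 46%, 78% and 96% of changes of 0.5, 1 and 2 on the log2 scale, and in that of the AoAcy experiment (9617 genes) 20%, 66% and 98%.

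Same-numbered replicates deviated together only between the untreated and induced Acy-labelled libraries, with correlations of 0.14 to 0.44 in the 3 pairs, and a block on the number was run as an alternative. Other alternatives were a pseudocount of 0.1 TPM, no filter, a minimum of 5 TPM, scaling to a shared median, robust variances, fits to the groups compared alone, leaving out single libraries, and each wild-type group of the AoPkaC1 experiment as 1 library. The share of a gene list called is given beside the share over all tested genes, without a test of the list. The text names, in part, the most abundant, shortest, longest, steadiest and most varied genes, the 3 largest called increases and decreases of each comparison, genes at the threshold, and genes lying next to each other. The run of neighbouring genes, AOL_s00169g35, and the genes with a named orthologous group were added after their values were seen. All members and lists were chosen with earlier results of these data known. Gene order was taken from RefSeq annotation of assembly AOL24927 1.0, in which all 11479 names were found. Start positions served only to order the genes, and no sequences were used.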

Additional observations from a re-analysis of the deposited data

Results flagged for a closer look

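The induction response differed between wild type and mutant libraries by the test of the difference itself, with limma at an adjusted p under 0.05. This held for 72 of the 87 genes (82.8%) in the AoPkaC1 experiment, where 71.9% of all tested genes were called. In the AoAcy experiment it held for 23 (26.4%), against 19.3% of all tested genes. The differences below are the response of the mutant libraries minus that of the wild type, on the log2(TPM + 1) scale.

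In the AoPkaC1 experiment the response was higher in the PkaC1-labelled libraries by 7.13 for AOL_s00078g518, 5.04 for AOL_s00004g563 and 4.43 for AOL_s00078g433. It was lower for AOL_s00088g34 (-4.94), AOL_s00173g246 (-2.76) and AOL_s00176g78 (-2.62). AOL_s00088g34 reached 1 TPM in that experiment only in the untreated PkaC1-labelled libraries. The difference of AOL_s00004g563 had an adjusted p of 0.00307, and of 0.105 when each wild-type group of that experiment was entered as 1 library.

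In the AoAcy experiment the response was higher in the Acy-labelled libraries by 2.24 for AOL_s00080g217, 1.99 for AOL_s00043g141 and 1.79 for AOL_s00188g228. It was lower for AOL_s00004g563 (-2.71), AOL_s00097g187 (-2.16) and AOL_s00210g274 (-2.07). AOL_s00004g563 thus differed in opposite directions in the experiments, which share no libraries, and this contrast between the experiments was not tested.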

How the results depend on the processing

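Entering each wild-type group of the AoPkaC1 experiment as 1 library lowered the count of called genes from 66 to 43 in the induced PkaC1-labelled comparison and from 72 to 41 for the difference of responses. The response of the Acy-labelled libraries to induction was called in 7 of the 87 genes, in 4 without the filter on low values, and in 4 with the replicate block, under which no other count moved by over 1.5 times. Leaving out single libraries gave 1 to 10 for this count, 73 to 80 and 61 to 75 for the untreated and induced PkaC1-labelled comparisons, 66 to 71 and 64 to 75 for induction in the strains of that experiment and 69 to 74 for their difference. In the AoAcy experiment it gave 43 to 51 and 39 to 48 for the untreated and induced Acy-labelled comparisons, 26 to 44 for induction of the wild type and 16 to 28 for the difference of responses. Of 1158 values of the 60 named changes under the alternatives, 1120 kept direction and side of the threshold, 38 lost the threshold and 0 changed sign. The membership was 45 genes when 300 TPM was asked in each experiment, and 48 when no Gene Ontology, KEGG or orthologous-group entry was allowed. The read depth is unknown, so no counting error can be given.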
